A study of Homo sapiens with 2 samples.

Results

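The LY6 cluster on the long arm of chromosome 8 was examined through 9 of its genes, *LY6K*, *LY6D*, *LY6E*, *LY6H*, *PSCA*, *SLURP1*, *LYPD2*, *GML*, and *LYNX1*, out of the 33538 genes listed for each cell. The genes were taken by name. The cluster was selected on the UMI counts of *LY6K*, which was already known to be nearly without UMIs in mock-treated cells and among the highest of such genes after treatment. The values of *LY6K* between the treatments are therefore a description and not a finding. HCT116 cells, a human colon cancer cell line, were mock-treated or treated with 0.5 μM of decitabine (DAC), a nucleoside that, once built into DNA, binds DNA methyltransferases irreversibly and so lowers DNA methylation. DAC was given on days 1 and 3 after seeding on day 0, both cultures were changed to fresh medium on day 5, and cells were collected on day 7. From each culture, 1 library was made with a droplet method that tags each transcript near its 3′ end with a unique molecular identifier (UMI). With 1 library per treatment, a difference between treatments had no replicate check and was not tested, and DAC cannot be told apart from any other difference between the cultures or library preparations. Intervals are exact 95% Poisson or Clopper-Pearson intervals, which cover counting error only. They are two-sided, while bounds for a count of 0 written as "at least" or "allows up to" use 3 counts.

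LY6 proteins share a small disulfide-bonded fold, the three-finger fold, and most of them are held at the cell surface by a glycosylphosphatidylinositol (GPI) anchor, while SLURP1 is secreted. In humans, a large group of these genes lies together on chromosome 8, and its members are used in different tissues: *LY6K* mainly in testis, *LY6D* and *SLURP1* in stratified epithelia, *LYNX1* and *LY6H* in the nervous system, and *PSCA* in the epithelium of stomach, bladder, and prostate. *LY6E* is expressed widely and is an interferon-stimulated gene. DNA methylation at promoters is known to keep many testis-restricted genes silent in somatic cells.

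In total, 1783 mock-treated cells gave 49911689 UMIs and 1751 DAC-treated cells gave 59046165. Median depth was 27899 UMIs per mock-treated cell and 35340 per DAC-treated cell, and single cells ranged from 500 to 148446 UMIs over both libraries. Since many cells were shallow or rich in mitochondrial transcripts, values are also given for cells with at least 10000 UMIs and no more than 50% mitochondrial UMIs, called deep cells below (1298 mock-treated and 1120 DAC-treated). All 7 epithelial markers were present in both libraries, with *KRT8* at 1094 CPM with mock treatment and 1895 CPM with DAC, *EPCAM* at 349 and 221.8 CPM, and *CLDN4* at 86.9 and 27.3 CPM, where CPM is UMIs scaled to the total of each library. Of the 7, 2 were past 2-fold higher and 1 past 2-fold lower with DAC, where 25.8% and 8.12% of all genes were. Markers of leukocytes, fibroblasts, and endothelium summed to 539 UMIs over 6 genes in the mock library, of which *COL1A1* gave 533, and to 1269 UMIs in the DAC library, of which it gave 1112. *PTPRC*, *CD3E*, *COL1A2*, and *PECAM1* were at 0 in the mock library and had between 9 and 46 UMIs in the DAC library. *VWF* had 6 UMIs in the mock library and 62 in the DAC library. The part of such transcripts in the results was not tested.

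*LY6K* (ENSG00000160886), at 142700111 to 142705127 on the plus strand of chromosome 8 in hg38, encodes a surface protein that is required on developing sperm. It had 22 UMIs in the mock library (95% interval 13.8 to 33.3) and 6813 in the DAC library (6652 to 6977). Scaled to depth, this was 0.441 CPM against 115 CPM, a ratio of 262 (173 to 418), or 8.03 on the log2 scale. With every cell thinned to 10000 UMIs, the log2 ratio was 7.33, on 9 and 1345 UMIs. The 22 UMIs in mock-treated cells lay in 22 different cells, 1.23% of the library. In DAC-treated cells, *LY6K* was detected in 1097 cells (62.6%), with a median of 4 UMIs in a cell with any and a maximum of 68. At 3 UMIs or more, the limit by which the study calls a gene upregulated, it was present in 690 DAC-treated cells. No mock-treated cell reached that limit, and 0 of 1783 cells allows up to 0.168% (3 counts).

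*LY6K* was not evenly spread over the DAC-treated cells. The 176 cells with the most *LY6K* UMIs, the top 10%, held 47.9% of them. When DAC-treated cells were divided into 3 equal groups by total UMIs, *LY6K* was detected in 20.4% of the cells with the fewest UMIs, in 77.4% of the middle group, and in 90.2% of the cells with the most UMIs. In mock-treated cells the highest of the 3 shares was 2.53%. Detection was thus higher in deeper cells. The cells with the fewest UMIs also had the highest median mitochondrial share, 54.3% in mock-treated and 20.7% in DAC-treated cells. Over all DAC-treated cells, 654 had no *LY6K* UMI, whereas 400.5 would be found if *LY6K* made up an equal fraction of the UMIs of all cells, a ratio of 1.63. Among deep DAC-treated cells, 162 of 1120 (14.5%, interval 12.5 to 16.7%) had none, whereas 17.9 would be found in this way, a ratio of 9.03. *LY6E* had no UMI in 12 deep DAC-treated cells, where 0.484 would be found in the same way. Over the 1293 DAC-treated cells with at least 10000 UMIs, the level of *LY6K* per cell had a median of 70.7 CPM, with quartiles of 20.04 and 149 CPM, and reached 1086 CPM. With every such cell thinned to 10000 UMIs, *LY6K* was present in 660 of 1293 cells with DAC (51.0%) and 9 of 1388 with mock treatment (0.648%). At this equal depth, 633 DAC-treated cells had no *LY6K* UMI against 456.9 for an equal fraction, a ratio of 1.39, so that the size of the ratio depended on which cells and depth were used.

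**Figure D1:**
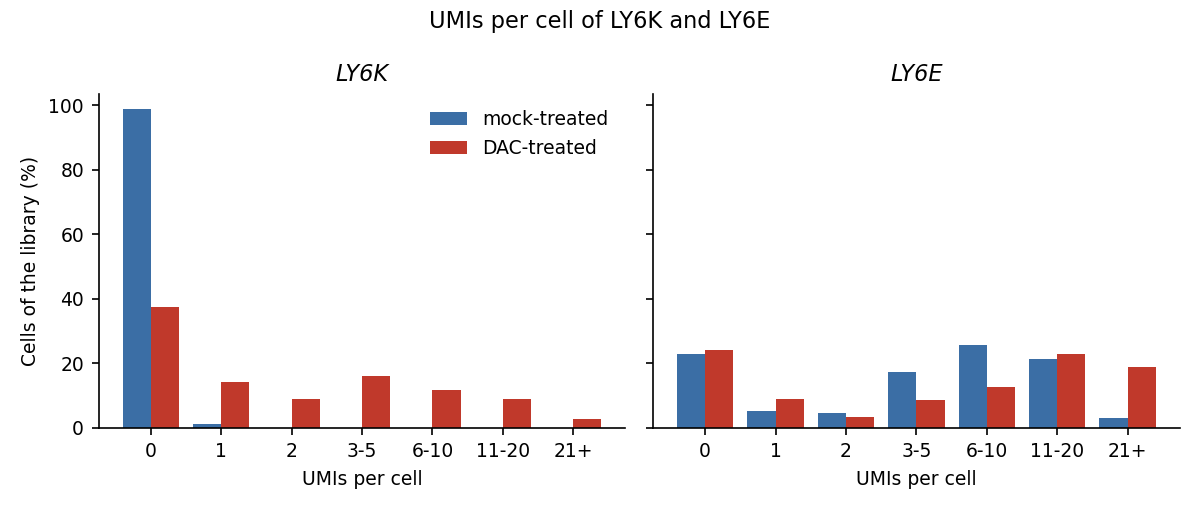
Share of cells of each library (y axis, %) by the number of UMIs per cell (x axis) for *LY6K* (left) and *LY6E* (right), with mock-treated cells in blue and DAC-treated cells in red. Every mock-treated cell had 0 or 1 UMI of *LY6K*, while 46 DAC-treated cells had 21 or more, and for *LY6E* the share of cells with 21 or more was 3.03% in mock-treated and 18.8% in DAC-treated cells. UMIs are not scaled to depth, which had a median of 27899 per mock-treated and 35340 per DAC-treated cell. Scaled to the library totals, the ratio of *LY6E* was 1.38.

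**Figure D2:**
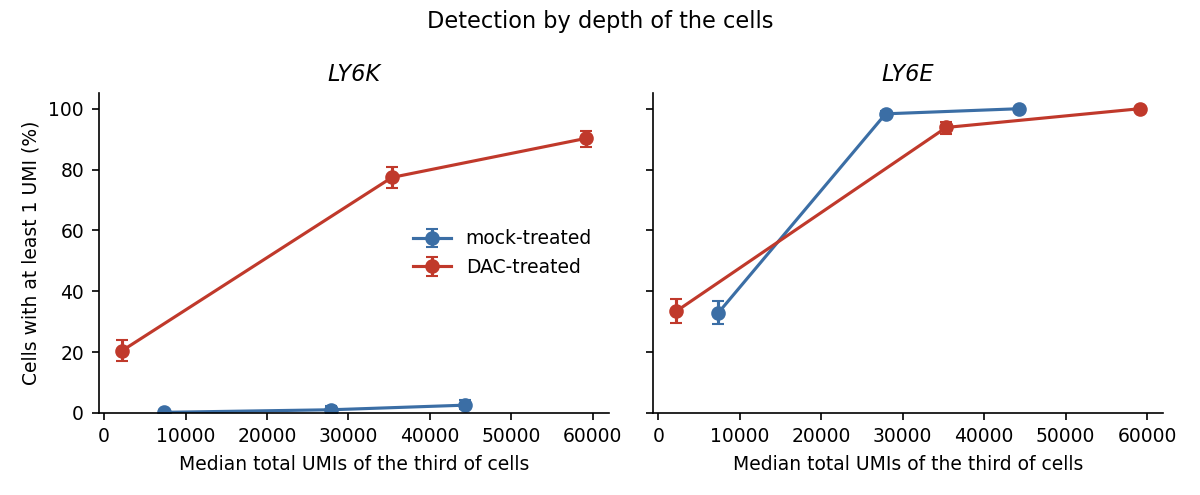
Share of cells with at least 1 UMI of *LY6K* (left) or *LY6E* (right) in 3 equal groups of cells by total UMIs, plotted at the median total UMIs of each group, with exact 95% intervals. Both genes were detected more often in deeper cells, and *LY6K* stayed at or below 2.53% in mock-treated cells of every depth.

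*LY6D* (ENSG00000167656), at 142784882 to 142786539 on the minus strand, encodes a surface protein of stratified epithelial cells and early B lineage cells. It had 10 UMIs in the mock library and 224 in the DAC library, which gave 0.200 and 3.79 CPM and a ratio of 18.9 (10.1 to 40.0), or 4.24 on the log2 scale. Thinning moved this outside the interval, to 5.39 at 10000 UMIs per cell (1 and 39 UMIs) and 2.60 at 2000 UMIs per cell (2 and 11 UMIs). Its UMIs came from few cells. Only 96 DAC-treated cells (5.48%) had any, against 7 mock-treated cells (0.393%), and 17 had 3 or more. A single DAC-treated cell had 46 UMIs of *LY6D* and another had 27, and the 10 cells with the most held 48.7% of its UMIs. When the cells with 46 and 27 UMIs were left out, which was chosen after the data were seen, 151 UMIs remained and the log2 ratio went from 4.24 to 3.67. The cell with 46 UMIs of *LY6D* had 1 UMI of *LY6K*, and the cell with 27 had 7. In mock-treated cells, 1 cell reached 3 UMIs of *LY6D*.

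*LY6H* (ENSG00000176956), at 143157914 to 143160711 on the minus strand, encodes a regulator of nicotinic acetylcholine receptors in neurons. The mock library held no UMI of it and the DAC library 16 (0.271 CPM), in 15 cells with up to 2 UMIs each. Against 3 counts over the mock-treated library, the limit that a count of 0 allows, *LY6H* was at least 4.51-fold higher with DAC, and the lower end of the two-sided interval was 3.26. After thinning to 10000 UMIs only 2 UMIs were left, too few to show a difference.

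*PSCA* (ENSG00000167653), at 142670308 to 142682725 on the plus strand, encodes prostate stem cell antigen. The mock library held 29 UMIs in 28 cells and the DAC library 85 in 77 cells, or 0.581 and 1.44 CPM, a ratio of 2.48 with an interval from 1.61 to 3.92 that reached below 2. At the equal depth, the counts were 7 and 12 UMIs, and the log2 ratio of 0.88 was below 2-fold. *LYNX1* (ENSG00000180155), at 142771197 to 142777810 on the minus strand, encodes a brake on nicotinic receptors. It had 32 UMIs with mock treatment and 57 with DAC, 1 per cell in each case. The ratio of 1.51 had an interval from 0.960 to 2.40, which includes no difference. Its annotated region overlaps that of *LYNX1-SLURP2* on the same strand over 6614 bases, so that shared reads could be lost or split. *LYNX1-SLURP2* and *SLURP2* each had 2 UMIs in the mock library and 0 in the DAC library.

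The remaining genes were at or near 0 in both libraries. *SLURP1* (ENSG00000126233, 142740949 to 142742406) encodes a secreted protein of keratinocytes. It had no UMI in either library, which allows up to 0.168% of mock-treated and 0.171% of DAC-treated cells with a UMI (0.207% and 0.210% by the two-sided interval). *LYPD2* (ENSG00000197353, 142750150 to 142752532) had 3 UMIs with DAC and *GML* (ENSG00000104499, 142834247 to 142916506), which encodes a GPI-anchored protein, had 2, and the mock library held none. In the DAC library, the two-sided intervals ended at 0.062 CPM for *SLURP1*, 0.148 CPM for *LYPD2*, and 0.122 CPM for *GML*, below the 3.79 CPM of *LY6D*. A difference within these limits was not detectable at this depth.

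**Figure D3:**
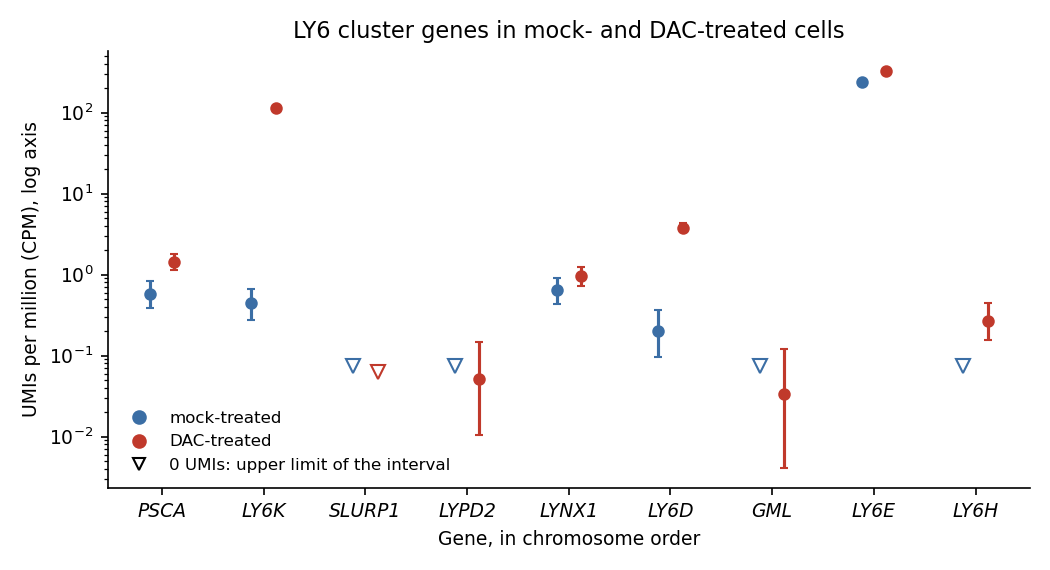
Level of the 9 genes in chromosome order, in CPM on a log axis, with exact 95% Poisson intervals, for mock-treated (blue) and DAC-treated cells (red). Open triangles mark the upper limit where no UMI was found. *LY6K* and *LY6D* have intervals far apart between the libraries, *LY6E* is the highest in both, and *LYNX1* intervals overlap.

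*LY6E* (ENSG00000160932), at 143017982 to 143023832 on the plus strand, was the 1 gene of the cluster that mock-treated cells used broadly. It had 11769 UMIs in the mock library and 19213 in the DAC library, or 235.8 and 325.4 CPM. The ratio of 1.38 (1.35 to 1.41) was 0.46 on the log2 scale, against a median of 0.33 over all genes with at least 10 UMIs. With median-of-ratios scaling, which lowered every log2 ratio by 0.24, it was 0.23. The share of cells with a UMI was 77.1% in mock-treated and 75.7% in DAC-treated cells, and among deep cells 98.8% and 98.9%. At the equal depth, the mean was 2.34 UMIs per mock-treated cell and 2.92 per DAC-treated cell.

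*LY6E* was set beside 18 other interferon-stimulated genes. Of these, 16 were past 2-fold higher in DAC-treated cells, where 25.8% of all genes were, and none was past 2-fold lower, with a median log2 ratio of 3.94, over a range from -0.41 (*IFITM2*) to 8.40 (*XAF1*). *LY6E*, at 0.46, was below all of them except *IFITM2* and *IFITM3*. Among the 18, *XAF1*, *OAS2*, and *IFI44L* had under 10 UMIs in the mock library and could be counted only where higher with DAC. The ratio of *XAF1* rested on 2 mock UMIs, with an interval from 93.3 to 2797. *ISG15*, a ubiquitin-like modifier, was 5.90-fold higher. At the equal depth, the UMIs of these 18 genes per cell had a median of 6 with mock treatment and 23 with DAC. When DAC-treated cells were divided into 3 equal groups by these UMIs, the mean of *LY6E* was 1.78, 2.88, and 4.09 UMIs per cell from the lowest to the highest group. In mock-treated cells the means were 1.94, 2.42, and 2.66. Across single cells, the Pearson correlation of log-transformed UMIs of *LY6E* with the summed genes was 0.43 over 1293 DAC-treated cells and 0.22 over 1388 mock-treated cells. These cells share a library and are not replicates. Cells with over 50% mitochondrial UMIs were kept here, and their part in these values was not tested. Before thinning, *LY6E* had no UMI in 88 of the 1293 DAC-treated cells and in 12 of the 1120 deep ones.

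By the rule of a CPM ratio of at least 2 with at least 10 UMIs in the higher library, 4 of the 9 genes were higher in DAC-treated cells (*LY6K*, *LY6D*, *LY6H*, and *PSCA*), 2 had enough UMIs but stayed below 2-fold (*LY6E* and *LYNX1*), and 3 had too few UMIs. Over all 18461 genes with at least 10 UMIs, 25.8% were past the same fold, and 27.9% of those on chromosome 8. Since *LY6K* was known beforehand, and a gene without UMIs in mock-treated cells can be counted only where it is higher in DAC-treated cells, nothing is read from the count. The log2 ratios were 8.03 for *LY6K* (7.43 to 8.71), 4.24 for *LY6D* (3.34 to 5.32), and 1.31 for *PSCA* (0.69 to 1.97), with intervals that did not overlap. For *LY6H* only a lower bound of 2.17 was known, so that its place among them was not. Since 3′ tag counts do not scale with transcript length, UMIs were also added over the genes. *LY6E* gave 99.2% of the UMIs of the 9 genes in the mock library and 72.7% in the DAC library, and *LY6K* 0.185% and 25.8%. Without *LY6E*, *LY6K* accounted for 6813 of the 7200 UMIs of the cluster in DAC-treated cells (94.6%).

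From *PSCA* to *LY6H*, over 490.4 kb, 13 other genes lay within or overlapped the span. Only 4 had at least 10 UMIs, and 0 of these reached 2-fold, where 25.8% of all genes were past it higher and 8.12% lower, so that 4 genes are too few to set the span apart. *THEM6*, of a family of thioesterases, starts 27.1 kb from the start of *LY6K* and had 309 UMIs with mock treatment and 376 with DAC, a ratio of 1.03 (0.883 to 1.20). *JRK*, which lies on the other side of *LY6K* and overlaps *PSCA* on the opposite strand, had 437 and 684 UMIs, a ratio of 1.32 (1.17 to 1.495). *AC108002.1*, a long non-coding RNA annotated as LNCOC1 that overlaps *LY6K* on the opposite strand over 3271 bases, had 51 and 48 UMIs. *LY6E-DT*, which overlaps the start of *LY6E* on the opposite strand, had 48 and 41 UMIs. The strand setting of the counting was not stated, so reads of such overlapping partners may not be told apart. *CYP11B1* and *CYP11B2*, steroid hydroxylases of the adrenal cortex that overlap the annotated span of *GML*, had no UMI in either library.

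With 500 kb added on either side, 30 genes other than the 9 had at least 10 UMIs, and 3 of them were past 2-fold higher in DAC-treated cells, where 25.8% of all genes were. These were *ADGRB1*, an adhesion receptor gene with 38 and 191 UMIs (ratio 4.25, interval 2.99 to 6.19), *AC108002.3* with 0 and 30 UMIs (at least 8.45-fold), and *AC067930.3* with 9 and 23 UMIs (ratio 2.16, interval 0.963 to 5.30). *RHPN1* was past 2-fold lower, with 759 and 423 UMIs (ratio 0.471), where 8.12% of all genes were. *ARC*, an activity-induced gene of neurons, had 1058 and 2196 UMIs and a ratio of 1.75 (1.63 to 1.89).

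**Figure D4:**
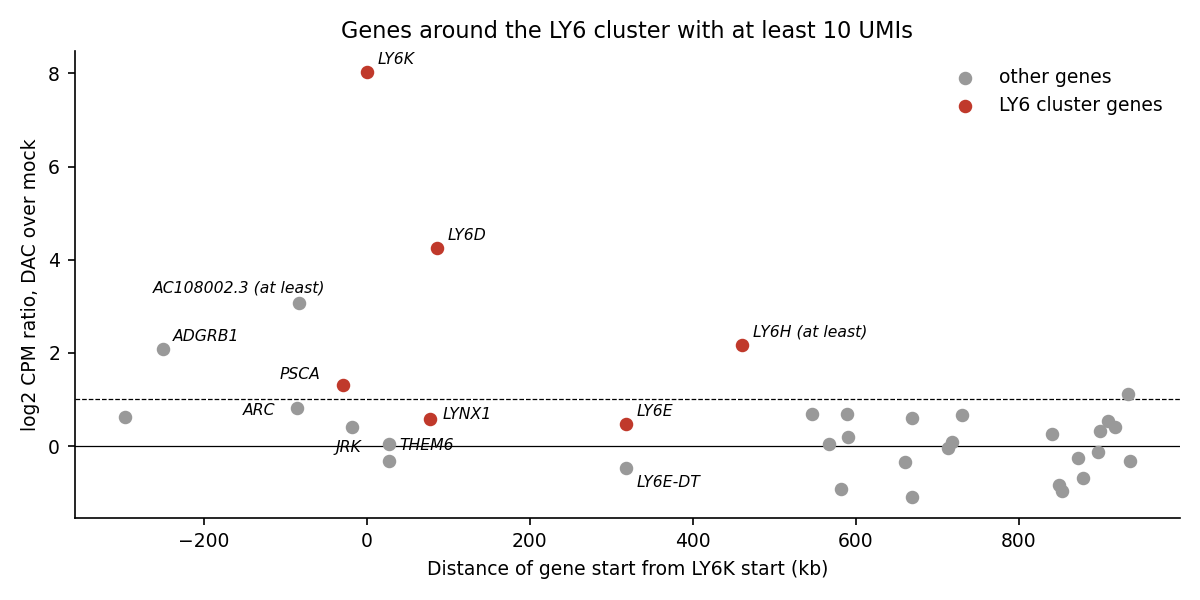
log2 CPM ratio of DAC-treated over mock-treated cells (y axis) against the distance of each gene's start from the start of *LY6K* in kb (x axis), for genes with at least 10 UMIs within 500 kb of the cluster. Cluster genes are red, others grey, the dashed line marks 2-fold, and *LY6H* and *AC108002.3* are lower bounds. *LY6K* stands at 8.03, while its neighbours *THEM6* and *JRK* are at 0.04 and 0.40.

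Detection of the genes in the same DAC-treated cells was examined by counting cells with a UMI of both. Free RNA can give single UMIs in a droplet, its share was not measured since every cell is of 1 line, and its part in these counts was not tested. *LY6K* was present in 79 of the 96 cells with *LY6D*, 67 of the 77 with *PSCA*, 52 of the 57 with *LYNX1*, and all 15 with *LY6H*. Each share, from 82.3% to 100%, was above the 62.6% of all DAC-treated cells with *LY6K*. The cells in question were deep ones, as cells with *LY6D* had a median of 50912 UMIs and cells without it 33847. When the expected number was computed within 10 groups of cells of similar total UMIs, it was 79.1 for *LY6D*, 66.6 for *PSCA*, 46.8 for *LYNX1*, and 12.2 for *LY6H*. As shares, *LY6K* was present in 82.3% of cells with *LY6D* (interval 73.2 to 89.3%) against 82.4% expected, in 87.0% of those with *PSCA* (77.4 to 93.6%) against 86.6%, in 91.2% of those with *LYNX1* (80.7 to 97.1%) against 82.1%, and in 76.5% of those with *LY6E* (74.1 to 78.7%) against 75.6%. Each of these intervals held the expected share. For *LY6H*, *LY6K* was in 100% of cells against 81.4% expected, and with 15 cells even this complete overlap had an interval from 78.2%, so that an excess could not have been seen. Over all cells together, without regard to depth, the ratio of observed to expected cells was 1.31 for *LY6D* and 1.39 for *PSCA*. With *LY6K* counted only at 3 UMIs or more, the shares were 58.3% for *LY6D* (47.8 to 68.3%) against 59.02% expected, 51.4% for *LY6E* (48.6 to 54.1%) against 50.5%, 70.1% for *PSCA* (58.6 to 80.03%) against 63.1%, 71.9% for *LYNX1* (58.5 to 83.03%) against 58.5%, and 86.7% for *LY6H* (59.5 to 98.3%) against 59.1%. At the equal depth, where 51.0% of cells had *LY6K*, it was present in 67.7% of 31 cells with *LY6D* (48.6 to 83.3%), 54.3% of 1076 with *LY6E* (51.2 to 57.3%), 41.7% of 12 with *PSCA* (15.2 to 72.3%), 83.3% of 12 with *LYNX1* (51.6 to 97.9%), and both of the 2 cells with *LY6H*. The intervals of *LY6H* in the first setting and of *LY6E* and *LYNX1* in the second began just above the expected share, by less than 1 percentage point, and are not adjusted for the number of pairs.

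Among the genes other than *LY6K*, *LY6D* and *PSCA* shared 12 cells against 6.65 expected (ratio 1.81, interval 0.933 to 3.15), and *LY6D* and *LYNX1* 8 cells against 4.73 (0.730 to 3.33). At most 4 of the 9 genes were detected in a DAC-treated cell, in 28 cells, and at most 3 in a mock-treated cell, in 7 cells. At least 1 of the 7 genes other than *LY6K* and *LY6E* was found in 12.6% of cells with DAC (220 cells) and in 3.59% with mock treatment (64 cells).

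**Figure D5:**
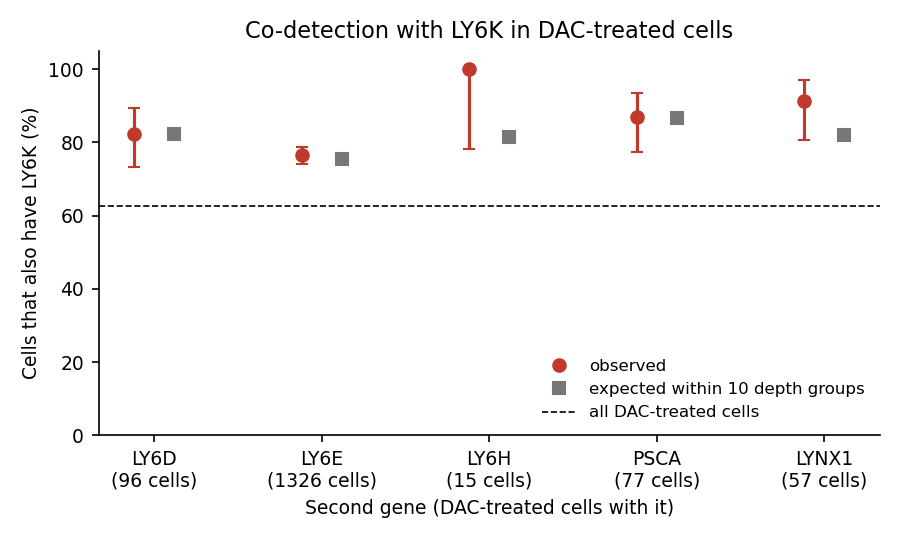
Share of the DAC-treated cells with a second gene (x axis) that also had *LY6K* (y axis, %), with exact 95% Clopper-Pearson intervals (circles), the share expected within 10 groups of cells by total UMIs (squares), and the 62.6% of all DAC-treated cells with *LY6K* (dashed line). All circles lie above the dashed line, and the squares lie between 75.6% and 86.6%, each within the interval of its circle, which for *LY6H* rests on 15 cells at 100%.

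DAC-treated deep cells were also divided by their *LY6K* UMIs into 162 cells with 0, 283 with 1 to 2, and 675 with 3 or more, and the other genes were summed in each. The median depth of these groups was 42048, 42201, and 50207 UMIs. *LY6D* was at 3.01 CPM (1.84 to 4.65) in cells without *LY6K*, at 6.16 CPM (4.86 to 7.70) in the middle group, which holds the cell with 46 UMIs, and at 3.399 CPM (2.82 to 4.06) in cells with 3 or more. Without the cells with 46 and 27 UMIs, which was chosen after the data were seen, the levels were 3.01, 2.49, and 2.64 CPM with overlapping intervals. The share of cells with *LY6D* was 6.79%, 7.77%, and 8.30% in the same order. Deep mock-treated cells had *LY6D* at 0.212 CPM. *PSCA* was at 1.35, 1.28, and 1.67 CPM, with overlapping intervals. *LY6H* had 0, 1, and 14 UMIs. *LYNX1* had 0, 10, and 41 UMIs, which was 0 CPM in cells without *LY6K*, with an interval up to 0.555, and 1.16 CPM (0.833 to 1.58) in cells with 3 or more. Outside the deep cells, 5 UMIs of it lay in cells without *LY6K*. Over all deposited cells, *LYNX1* was at 0.525 CPM (0.171 to 1.23) in cells without *LY6K* and at 1.15 CPM (0.826 to 1.56) in cells with 3 or more, a ratio of 2.19 with an interval from 0.867 to 7.11 that included 1. *LY6E* was at 295.1 CPM (282.2 to 308.5), 308.2 CPM (298.5 to 318.0), and 367.6 CPM (361.3 to 374.0), and the last interval lay above the others. Its level in cells with 3 or more was 1.25 times that in cells with 0. Over all cells, this ratio was 1.57 and the median depth of the 3 groups was 5166, 34377, and 49980 UMIs.

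At the equal depth, genes that never exceeded 2 UMIs in a mock-treated cell, *LY6K* left out, had a median of 106 UMIs in DAC-treated cells without *LY6K*, 113 in cells with 1 to 2 UMIs of it, and 125 in cells with 3 or more. The median in mock-treated cells was 45, low by the choice of the genes. Cells with over 50% mitochondrial UMIs were kept in these groups, and their part was not tested. Before thinning, *LY6K* had no UMI in 270 of the 1293 DAC-treated cells and in 162 of the 1120 deep ones. Of 8556 genes with at least 500 UMIs after DAC treatment, the 5 whose UMIs per cell were most like those of *LY6K* were *DYNLL1*, *H3F3B*, *TMSB10*, *RPL12*, and *PFN1*, all from other chromosomes. The 5 genes were abundant, with between 51362 and 217632 UMIs in the DAC library, and the part of abundance in this ranking was not tested. Their Pearson correlations were between 0.22 and 0.25 over 1293 cells, which is weak, and the correlation of *LY6E* with *LY6K* was 0.18, near the 99th percentile of 0.18 over all these genes.

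Of 26 genes with the same protein fold outside the 9 (among them *GPIHBP1*, which lies beyond *LY6H* and had 0 and 4 UMIs), 14 had at least 10 UMIs, and 10 of these were past 2-fold higher and 1 past 2-fold lower in DAC-treated cells, where 25.8% and 8.12% of all genes were. Of the 10, *LYPD8*, *TEX101*, *PINLYP*, *PATE2*, and *LY6G6C* had under 10 UMIs in the mock library and could be counted only where higher with DAC. *TEX101*, on chromosome 19 from 43401496 to 43418597, encodes the germ cell protein with which LY6K is known to associate. It had 1 UMI with mock treatment and 256 with DAC, in 146 cells, a ratio of 216 (38.5 to 8580). *PINLYP* on the same chromosome had 1 and 71 UMIs (ratio 60.02, interval 10.4 to 2403), and *PATE2* on chromosome 11 had 1 and 21 UMIs (17.8, interval 2.85 to 734). *BAMBI*, a decoy receptor of TGF-β family ligands, was 5.05-fold higher, *LYPD3* 3.92-fold, *LYPD6* 2.72-fold, *CD59*, an inhibitor of complement, 2.15-fold, and *LYPD5* 2.06-fold. *LY6G6C* was 3.98-fold higher (1.73 to 10.7) and *LYPD8* at least 7.89-fold. *LYPD6B* was lower, with 445 and 194 UMIs (ratio 0.369, interval 0.310 to 0.437), and *PLAUR*, the urokinase receptor, was at 0.869. *TEX101* and *LY6K* were found together in 121 DAC-treated cells against 115.7 expected within groups of similar depth (ratio 1.05, interval 0.868 to 1.25), a count made after the values were seen.

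Genes that build and attach the GPI anchor, and receptors that several of these proteins bind, were counted for comparison. Of 28 GPI anchor genes, 27 had at least 10 UMIs, with a median log2 ratio of 0.10, against 0.33 over all genes. The 1 gene past 2-fold higher and the 1 past 2-fold lower compare with 25.8% and 8.12% of all genes. *PIGG* was past 2-fold higher (2.08) and *PIGZ*, which adds a side-chain mannose, past 2-fold lower (0.348). *GPAA1*, a subunit of the transamidase that attaches the anchor, was at 48.8 and 74.96 CPM. Of 13 nicotinic receptor subunits, 7 had at least 10 UMIs and 4 were past 2-fold higher, where 25.8% of all genes were. *CHRNA4* and *CHRNA3* passed the minimum through the DAC library alone. The 4 were *CHRNA4* (0 and 36 UMIs, at least 10.1-fold), *CHRNA3* (4 and 26 UMIs), *CHRNB4* (2.89-fold), and *CHRNA5* (2.70-fold). *CHRNA7* was at 1.56 and 1.76 CPM.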

How the data were processed

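The data were UMI counts of 1 mock-treated and 1 DAC-treated library of HCT116 cells. Cell Ranger was used by the authors for mapping to hg38, and the deposited values are whole UMI counts for each gene in each cell, not normalized. The annotation release, the strand setting, and any filter on cells are not given in the sources used here. Positions were taken from GENCODE release 44 on hg38 by Ensembl identifier.

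UMIs were summed over cells and scaled to the library total (CPM). A gene at 0 in mock-treated cells was set against 3 counts. Expected numbers of cells with a pair of genes were computed within 10 groups of cells by total UMIs. Counting intervals were exact, at the 95% level. With 1 library each, no test between treatments was possible. Doublets were not called. Both libraries shared 12 barcodes. Computations used numpy 2.4.6, pandas 2.3.3, and scipy 1.17.1 under Python 3.11.15, with matplotlib 3.10.9 for the plots, and were tested on simulated data.

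The members and gene lists were chosen with earlier results of these data known. Named genes were the members, genes of the interval and its 500 kb flanks, genes of the lists past 2-fold with a few below it, and the 5 genes most like *LY6K* over cells. The alternatives were thinning to 10000 or 2000 UMIs, filters on cells, another scaling, other thresholds, and wider flanks.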

Additional observations from a re-analysis of the deposited data

How the results depend on the processing

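Of 97 alternatives over 25 results, 62 moved the value by no more than its counting interval or the allowed factor, 35 moved it further, and 0 reversed a value whose interval excluded no difference. The ratio of *LY6D* between cells with 3 or more *LY6K* UMIs and cells with 0 was 1.23 over all cells, with an interval of 0.802 to 1.96 that included 1. In deep cells without the cells with 46 and 27 *LY6D* UMIs, this ratio was 0.877. Thinning every cell to 10000 UMIs gave log2 ratios of 7.33 for *LY6K*, 5.39 for *LY6D*, and 0.32 for *LY6E*, and thinning to 2000 UMIs gave 2.60 for *LY6D* and 0.34 for *LY6E*. Median-of-ratios scaling gave 0.23 for *LY6E*. Leaving out cells with over 20% mitochondrial UMIs gave a lower bound of 1.56 for *LY6H*. Thinning left too few UMIs for a ratio of *LY6H* at either depth and of *PSCA* at 2000 UMIs.

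Most shares of cells with a gene moved with the setting. With at least 3 UMIs required, thinned to 10000 UMIs, and in deep cells, it was 39.4%, 51.0%, and 85.5% for *LY6K*, 0.971%, 2.40%, and 7.95% for *LY6D*, and 63.3%, 83.2%, and 98.9% for *LY6E*. For *LY6H* it was 0% and 0.155% under the first and the second setting, and for *PSCA* 0%, 0.928%, and 6.79%, and for *LYNX1* 0%, 0.928%, and 4.55%. The number of cells without *LY6K* over an even share was 1.63 in all cells, 9.03 in deep cells, and 1.39 after thinning. *LY6K* gave 94.6% of the cluster's UMIs without *LY6E*.

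Members past the fold were 4 of 6 (25.8% of all genes), 3 of 5 with a minimum of 50 UMIs (19.2%), and 3 of 6 at 4-fold (13.8%). Over the interval with its flanks, members included, genes past the fold were 7 of 36 (19.4%, where 25.8% of all genes were). With a minimum of 50 UMIs they were 4 of 29 (13.8%, where 19.2% of all genes were). With 1000 kb on either side they were 13 of 58 (22.4%, where 25.8% of all genes were), as more genes were counted. Observed over expected cells with *LY6K* were 1.31 for *LY6D*, 1.22 for *LY6E*, and 1.39 for *PSCA* over all cells together, and after thinning 1.33 for *LY6D* and 1.63 for *LYNX1*. *LY6E* in cells with 3 or more *LY6K* UMIs over cells with 0 was 1.25 in deep cells and 1.57 in all. The causes were not tested. No paired analysis was possible because each treatment had 1 library. Depth limited what could be seen of *LY6H*, *LYPD2*, *GML*, and *SLURP1*, which had between 0 and 16 UMIs in a library.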
